A study of Drosophila melanogaster with 3 samples.

Results

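Spalt-related (Salr) is a zinc-finger transcription factor and the paralogue of Spalt major (Salm). The regions described here are 1344 peaks of Salr ChIP-seq that lie just under the authors' thresholded list and yet recur in every replicate. IDR, the irreproducible discovery rate, is a measure of how well peak ranks agree between replicates, and the authors' optimal IDR list holds 6485 peaks. A region was taken when it was absent from that list and ranked no lower than 15000 by signal value in the list called on the pooled replicates. Its summit also had to lie within 100 bp of a summit among the 15000 best entries of each of the 3 replicate lists. Of 8515 pooled entries in that rank range 1344 met the rule, 15.8%, out of 30000 entries in the pooled list. They were thus selected on measured ranks, and their rank, signal value and recurrence describe the choice and are not results. They are called matched peaks below, the remaining 7171 entries of the rank range are called unmatched peaks, and the entries of the thresholded list are called IDR peaks. The label "reproducible" is used only in the sense of this summit rule.

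The libraries came from whole prepupae of both sexes, pooled, from a transgenic line that stably expresses Salr with GFP at its C-terminus. The precipitation used an antibody against GFP. All 3 libraries are biological replicates of this single group, the age within the stage is given as unknown, and no line without the tag and no other stage is compared here. The whole animal was used, so a peak can come from any tissue, and a weak peak in many cells cannot be told apart from a strong one in few. Each peak carries a signal value, the authors' own score, which ranks peaks within a list. The depth of the libraries is unknown here.

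Spalt proteins are long nuclear factors with pairs of zinc fingers, and in the fly they are known for patterning the wing and its veins under Decapentaplegic signalling, for photoreceptor and sensory organ fate and for the fate of fibrillar flight muscle. The related mammalian SALL4 is known to bind short AT-rich words through its last zinc fingers. The prepupa is the short stage between the pulses of ecdysone that end larval life and start adult development, when the wing everts and larval tissues begin to be removed.

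Sequences of 8 matched peaks are shown because the findings below turn on 3 kinds of them: pairs with an IDR summit close by, matched peaks that stand alone, and those with an AT-rich word near the summit. All are plus-strand Release 6 (dm6) sequence, 5′ to 3′, outside annotated exons. The first sequence is chr3R:21633346-21633610 in an intron of E2f1, a transcription factor that drives entry into S phase, and the second is chr3R:14591253-14591520 in stumps, which encodes an adaptor of the fibroblast growth factor receptors. In both, capitals mark the 21 bases around the IDR summit first and around the matched summit second.
E2f1 pair: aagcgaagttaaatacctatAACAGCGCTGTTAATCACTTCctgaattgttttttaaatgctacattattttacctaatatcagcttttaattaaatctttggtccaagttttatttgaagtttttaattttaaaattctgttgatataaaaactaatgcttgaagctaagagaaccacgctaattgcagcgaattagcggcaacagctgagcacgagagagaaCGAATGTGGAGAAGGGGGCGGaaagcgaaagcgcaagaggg
stumps pair: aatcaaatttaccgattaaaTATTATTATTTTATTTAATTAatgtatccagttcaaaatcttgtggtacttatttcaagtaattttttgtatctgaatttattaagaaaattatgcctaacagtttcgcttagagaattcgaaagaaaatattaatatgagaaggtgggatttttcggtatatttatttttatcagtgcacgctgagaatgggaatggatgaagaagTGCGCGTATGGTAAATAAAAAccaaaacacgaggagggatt
The next sequences are chr3R:25517732-25517932 in msi, the RNA-binding protein Musashi, and chr3R:29195436-29195636, which lies between genes and nearest to the start of jus. They are the matched peaks over 1 kb from any IDR summit that ranked best in their worst replicate, and capitals mark the 21 bases around the summit.
msi: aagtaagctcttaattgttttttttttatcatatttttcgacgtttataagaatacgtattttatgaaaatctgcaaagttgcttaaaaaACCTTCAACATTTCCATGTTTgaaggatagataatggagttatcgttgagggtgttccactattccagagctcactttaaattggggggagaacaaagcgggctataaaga
jus: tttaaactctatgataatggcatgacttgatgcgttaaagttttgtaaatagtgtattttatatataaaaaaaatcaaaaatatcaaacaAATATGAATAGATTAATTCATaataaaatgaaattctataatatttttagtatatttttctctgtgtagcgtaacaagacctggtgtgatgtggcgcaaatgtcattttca
The last group holds the matched peaks of highest signal value with AATATT, an AT word of the kind SALL4 binds, or with the TATA box word TATAAA, within 25 bp of the summit. They are chr3R:5060274-5060474 near lncRNA:CR45588, chr2L:5434285-5434485 near lncRNA:CR43715, chrX:9068224-9068424 near CG15365 and chr3L:16972314-16972514 in an intron of Exn. Capitals mark AATATT in the first pair of sequences and TATAAA, on either strand, in the last pair.
CR45588 site: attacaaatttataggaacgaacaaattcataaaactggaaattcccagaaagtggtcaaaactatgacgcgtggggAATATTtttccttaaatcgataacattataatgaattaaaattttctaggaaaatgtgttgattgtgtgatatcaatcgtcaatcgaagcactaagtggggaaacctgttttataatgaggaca
CR43715 site: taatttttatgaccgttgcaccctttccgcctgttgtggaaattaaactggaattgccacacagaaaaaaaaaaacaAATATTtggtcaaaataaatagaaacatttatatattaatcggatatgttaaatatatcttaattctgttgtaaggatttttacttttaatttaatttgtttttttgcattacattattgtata
CG15365 site: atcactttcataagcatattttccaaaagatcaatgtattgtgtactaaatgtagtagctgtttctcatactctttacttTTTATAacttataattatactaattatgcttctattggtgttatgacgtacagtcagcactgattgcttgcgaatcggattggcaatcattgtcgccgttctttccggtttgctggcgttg
Exn site: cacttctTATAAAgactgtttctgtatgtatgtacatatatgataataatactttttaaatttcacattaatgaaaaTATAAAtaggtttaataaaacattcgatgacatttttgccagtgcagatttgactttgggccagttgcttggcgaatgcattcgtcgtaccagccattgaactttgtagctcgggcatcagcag

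The share of pooled peaks with a match in all 3 replicates fell with rank, inside the IDR list as well as below it. Within that list it was 95.1% for ranks 1 to 1000, 86.95% for ranks 1001 to 3000, 77% for ranks 3001 to 5000 and 61.1% for ranks 5001 to 6485, and 79.2% over all of it. Below the list it was 43.9% from there to rank 8000, where 665 of 1515 peaks were matched. The matched share was 28.3% for ranks 8001 to 9000, 10.4% for the 1000 ranks after 10000 and 0.3% for ranks 14001 to 15000, which held 3 matched peaks. The drop from 61.1% to 43.9% across the end of the list was similar to the drops on either side of it, 77% to 61.1% and 43.9% to 28.3%. The bins are of unequal width. The pooled list was called on the same replicates, so a fall with rank follows in part from the rule. In the next 1000 ranks outside the range, 1 entry would have been matched. Of the 6485 IDR peaks 5137 met the summit rule that the matched peaks pass.

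**Figure D1:**
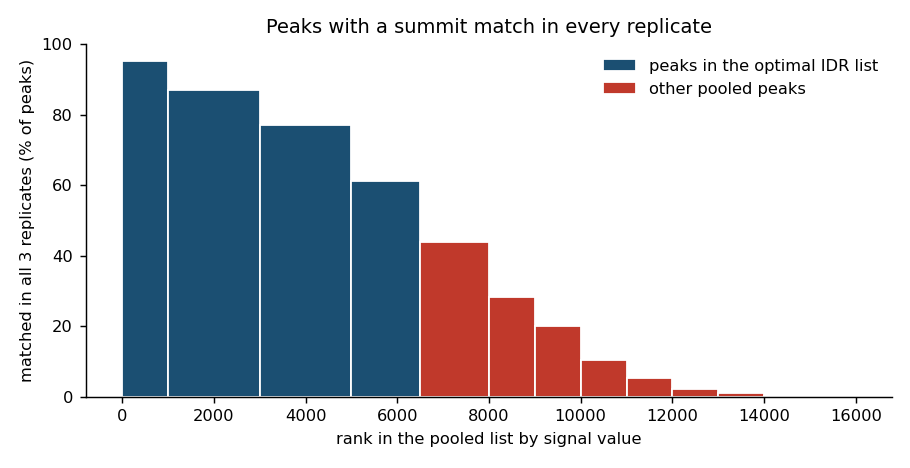
Share of pooled peaks with a summit match in all 3 replicates (y axis, percent of peaks) by rank in the pooled list (x axis), for the IDR list and for the other entries. The bars fall from 95.1% in the first bin to 61.1% in the last of the IDR list and 43.9% in the first below it.

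The signal values of the matched peaks ran from 59.6 to 116.5, with a median of 98.9. The median was 195 for IDR peaks and 74.6 for unmatched peaks. The deposited −log10 q had a median of 1.97 in matched peaks, against 3.975 in IDR peaks and 1.27 in unmatched peaks. The last entry of the IDR list, in ari-1, and the first below it, at raskol, both had a signal value of 116.5. The entries at the first 2 ranks after the IDR list lacked a summit match in replicate 1. The first matched peak, in the long noncoding gene lncRNA:CR44997, followed at rank 6488 with the same signal value of 116.5. The last matched peak lay at rank 14820 in an intron of bbg and had a signal value of 59.6.

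By the rule every matched peak is among the 15000 best of the 30000 entries of each replicate list. In replicates 1, 2 and 3 their median rank was 9613, 9400 and 9142, and their best rank was 2176, 1168 and 864. Only a minority, 126, 183 and 270 of the 1344, stood among the 6485 best of replicates 1, 2 and 3. In 837 cases none of the replicates had the peak among its 6485 best, and in 8 cases all 3 replicates did. The median distance between the pooled and the replicate summit was 17, 25 and 32 bp. The 100 bp limit falls inside a continuous range of distances. In replicates 1, 2 and 3, 33, 57 and 55 matched peaks lay 91 to 100 bp from their summit, and 33, 47 and 50 peaks that lacked only that replicate lay up to 10 bp past the limit. Of the unmatched peaks 3472 had a match in 2 replicates, 3118 in 1 and 581 in none.

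The matched peaks that ranked best in all replicates were neighbours of IDR peaks. A replicate rank is that of the best-ranked replicate summit within 100 bp. Beside an IDR peak that summit need not be separate from the IDR peak's own, so these ranks may not belong to the matched peak. The 8 matched peaks among the 6485 best of every replicate all had an IDR summit between 200 and 225 bp away. The peak in E2f1 shown above had replicate ranks of 3671, 2979 and 3252 and signal values of 85.83, 67.14 and 48.77, and it stood 204 bp from an IDR summit of signal value 243.4. The peak in stumps ranked 4586, 3896 and 2091, though it was only 11628 in the pooled list, and lay 207 bp from an IDR summit of 270.1. A peak nearest to the start of scyl, which encodes an inhibitor of TOR signalling, ranked 5380, 1168 and 864 and stood 205 bp from an IDR summit of 275.8. Others of the 8 lay in Fim, which encodes an actin-bundling fimbrin, and near foxo, which encodes a transcription factor restrained by insulin signalling. The foxo neighbour had an IDR signal value of 598.2, and the pooled matched summit beside it had 87.87.

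These neighbours had a fixed spacing and a fixed side. Of the 1344 matched peaks 170 (12.6%, Wilson 95% interval 10.98 to 14.53%) lay within 250 bp of an IDR summit, none closer than 199 bp and with a median of 204 bp. Another 19 lay at 251 to 500 bp. All 170 sat at the higher coordinate of the pair, on the plus-strand numbering of the arm, and none at the lower one, which allows a share of up to 2.21% (Wilson upper bound for a count of 0). The same held for 986 of 989 unmatched peaks so placed and for all 725 such peaks ranked after 15000. In the dm3 lists, made by the authors on the older assembly, 175 of 175 matched peaks chosen by the same rule were on the higher side. In the replicate lists, of all neighbouring summits within 250 bp the weaker was at the higher coordinate in 94.9% ± 1.05 (SD, n = 3). The spacing was the same in every list, with a minimum of 199 bp.

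**Figure D2:**
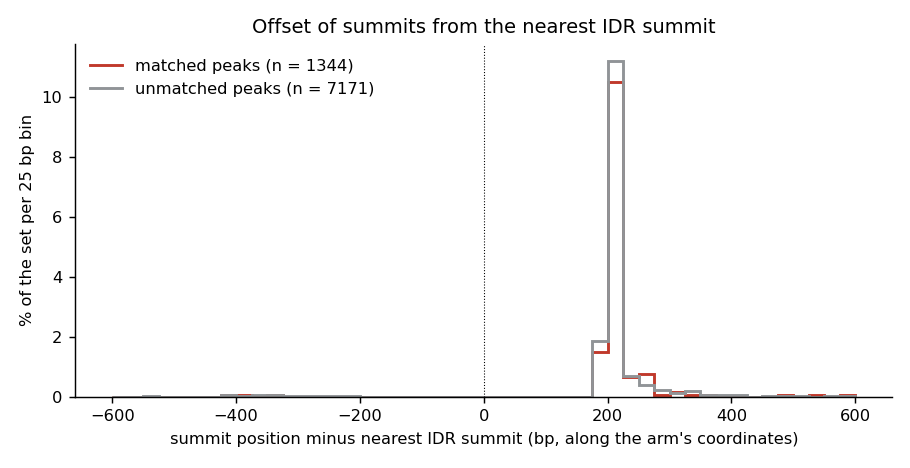
Signed distance of each summit from its nearest IDR summit (x axis, bp along the coordinates of the arm, 25 bp bins) as percent of the set (y axis) for the 1344 matched and 7171 unmatched peaks. Both sets have a single spike at 200 to 224 bp on the higher side, 10.5% of the matched peaks, and nothing in the bins up to 174 bp.

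In most pairs the replicates held both summits as separate entries. A separate summit within 100 bp of the IDR summit was listed for 154, 149 and 133 of 170 pairs in replicates 1, 2 and 3, and for 105 pairs in all 3. Where both were listed, the IDR summit had the better rank in 152, 145 and 130 pairs. In 16, 20 and 37 pairs no replicate summit lay that close to the IDR summit. For those it cannot be told which of the neighbouring peaks the replicate summit belongs to. The neighbours' median GC content in the 100 bp to each side of the summit was 41.0%, against 36.3% for the other 1174 matched peaks. Their median worst rank over the replicates was 11518, against 12278 for the others. A better-ranked pooled summit within 250 bp was also found for 800 IDR peaks (12.3%), 14.96% of matched peaks and 1452 unmatched peaks (20.2%). What fixes the spacing and side was not tested, and the results that follow are given with and without these 170 peaks where they differ.

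Of the 1344 matched peaks 1020 had no IDR summit within 1 kb, and the 10 of these with the best worst rank over the replicates are described here, so their ranks follow from the choice. The one in msi ranked 6016, 7077 and 7242 in replicates 1, 2 and 3, with signal values of 60.03, 36.20 and 28.33. The one near jus, named for a seizure-prone mutant, had signal values of 51.22, 35.24 and 30.63. One in Ser, which encodes a Notch ligand, ranked 7952, 6322 and 6533 and lay 5103 bp from an IDR summit. Another in an intron of ds, the cadherin Dachsous of the Fat pathway, ranked 7111, 7500 and 7488. All 10 ranked between 6016 and 8006 in every replicate, and none had over 44.3% GC.

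The 10 matched peaks of highest signal value had values of 116.2 to 116.5. The leading one, in lncRNA:CR44997, ranked 6474, 9134 and 8144 in the replicates and stood 159886 bp from the nearest IDR summit. Of the 10, 4 were nearest to the start of a long noncoding gene, 1 to that of an antisense gene and 5 to that of a protein-coding gene. Among the latter were E2f1 and Nsun2, an RNA methyltransferase gene. The Nsun2 peak ranked 8707, 5868 and 5674. The one near CG1213 ranked 5415, 12889 and 6510, so its replicates differed more than 2-fold in rank.

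By count, more matched peaks lay in introns and between genes than at start sites. The amount of sequence in each class is not taken into account, so the counts alone show no preference for or avoidance of a class. Of the 1344, 690 (51.3%) were in introns, 339 (25.2%) were intergenic and 278 (20.7%) lay within 500 bp of a start site, called promoter here. A further 16 were in 3′ UTRs, 14 in exons of noncoding transcripts and 7 in 5′ UTRs. None fell in a coding exon, and that count of 0 allows a share of up to 0.223%, which is 3 peaks of the total (Wilson upper bound 0.285%). The nearest start site was that of a protein-coding gene for 1046 peaks (77.8%), of a noncoding RNA gene for 260 and of a tRNA gene for 22. The median distance to it was 2564 bp. Of the 278 promoter peaks 184 (66.2%) lay upstream of the start site.

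Against IDR peaks the promoter share was lower by 9.25 percentage points, with 20.7% of matched and 29.9% of IDR peaks (difference −9.25, Newcombe 95% interval −11.6 to −6.74; two-sided Fisher's exact test, adjusted p = 3.57e-11). The intergenic share was higher by 6.35 points (3.90 to 8.92; Fisher's exact test, adjusted p = 1.53e-06). The intron share differed by 2.61 points (−0.325 to 5.54; Fisher's exact test, adjusted p = 0.230). The promoter share also fell with rank inside the IDR list, from 46.7% for ranks 1 to 1000 to 23.6% for ranks 5001 to 6485. Against the latter peaks alone the promoter difference was −2.88 points and did not pass (Fisher's exact test, adjusted p = 0.245), an alternative added after the data were seen. These tests take peaks as units, neighbouring peaks are not independent, and they do not measure the spread between animals. In the replicate lists 32.5% ± 2.08 of the 6485 best summits and 22.0% ± 1.07 of those ranked next, down to 15000, were at promoters (SD, n = 3). The replicate summits matched to the 1344 peaks gave 20.6% ± 0.301, although they are nearly the same places in each replicate.

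Against unmatched peaks no annotation class passed the test over the whole rank range, but the promoter class did within a part of it. The promoter shares were 20.7% and 20.6%, a difference of 0.0737 points (−2.21 to 2.50; two-sided Fisher's exact test, adjusted p = 1.00), and none of the 7 classes passed. Matched peaks are concentrated at the better ranks, 1150 of them among the first 10000 ranks, so a pooled comparison sets peaks of unlike rank side by side. Down to rank 10000, 20.6% of matched and 24.9% of unmatched peaks were at promoters (difference −4.25 points, Fisher's exact test, adjusted p = 0.0180). From there to rank 15000 it was 21.1% of 194 matched and 18.5% of 4806 unmatched peaks (2.62 points, Fisher's exact test, adjusted p = 0.991). Coding exons held 0 matched and 26 unmatched peaks (difference −0.363 points; Fisher's exact test, adjusted p = 0.0907), and without replicate 2 in the rule the difference of −0.432 points passed (Fisher's exact test, adjusted p = 0.000513).

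**Figure D3:**
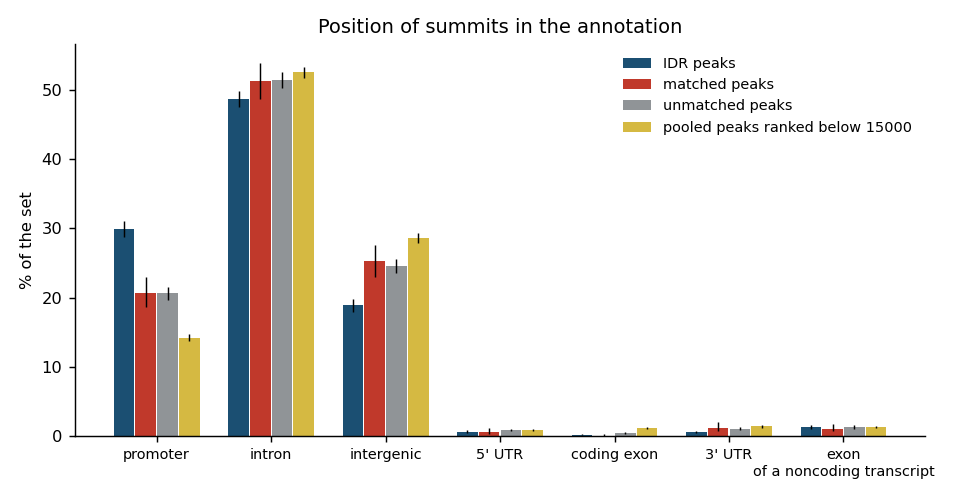
Percent of each set (y axis) with the summit in each annotation class (x axis), for IDR peaks, matched peaks, unmatched peaks and pooled peaks ranked below 15000, with Wilson 95% intervals as error bars. Promoters hold 29.9% of IDR peaks and 20.7% of matched peaks.

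The difference in closeness to IDR peaks also depended on rank, and it passed with opposite signs in the upper and the lower ranks. Within 1 kb of an IDR summit lay 324 matched peaks (24.1%) and 1634 unmatched peaks (22.8%), a difference of 1.32 points (−1.10 to 3.87; two-sided Fisher's exact test, p = 0.290). Down to rank 10000 it was 21.8% of matched against 29.4% of unmatched peaks, a difference of −7.56 points (Fisher's exact test, p = 1.70e-06). After rank 10000 it was 37.6% against 19.5%, a difference of 18.1 points (Fisher's exact test, p = 1.41e-08). Closeness is not independent of the rule, since beside an IDR peak the replicate summit that meets the rule need not be a separate one. How much this adds to the differences was not tested. Without replicate 3 in the rule the difference over all ranks was 4.11 points (Fisher's exact test, p = 2.65e-05). Peaks within 250 bp move the same way, with 10.96% of matched and 19.7% of unmatched peaks in the upper ranks and 22.7% and 10.9% in the lower ranks. Farther out, 499 matched peaks lay 1001 to 5000 bp from an IDR summit, 469 lay 5001 to 50000 bp away and 52 lay farther.

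Over the chromosome arms the number of matched peaks went with that of IDR peaks. Arm 2L held 252 of them, 2R held 216, 3L held 319, 3R held 329 and X held 226, and chromosome 4 held 2. Per 100 IDR peaks that is between 19.3 and 22.1 on the 5 long arms. The fourth chromosome, mostly heterochromatic, gave 12.5 per 100, from 2 matched and 16 IDR peaks. The median gap between neighbouring matched peaks was 43544 bp, and 32 of them had another within 1 kb.

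Summits of matched peaks sat in an AT-rich dip that was, over all ranks, shallower than that of IDR peaks. The median GC content in windows reaching 100 bp to each side was 36.8% for matched, 34.3% for IDR and 38.8% for unmatched peaks, and 42.3% for windows of that width tiling the 6 arms. GC content also rose with pooled rank in each set, and the gaps were smaller between peaks of like rank. The median was 35.3% for IDR peaks of ranks 5001 to 6485 and 35.8% for matched peaks from there to rank 8000. Down to rank 10000 it was 36.3% for matched and 37.8% for unmatched peaks, and after rank 10000 it was 39.3% for both. Mean GC over 51 bp at the summit was 33.01% for IDR peaks and 36.0% for the 1174 matched peaks over 250 bp from an IDR summit. On both sides of the latter it reached about the same height as beside IDR peaks, 45.1% at −300 bp for both. In the 170 neighbours the lowest mean GC, 29.8%, was not at the summit but 150 bp on the lower side of it, toward the IDR summit, and the summit itself had 43.1%. The E2f1 pair shown above has 66.7% GC in the 21 bases at the matched summit and 42.9% at the IDR summit. The stumps pair has 33.3% and 0%. In the replicates the median GC of the summits matched to these peaks was 37.2% ± 0.287, that of their 6485 best summits was 34.7% ± 0.287 and that of the next ranks down to 15000 was 38.8% ± 0.995 (SD, n = 3).

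**Figure D4:**
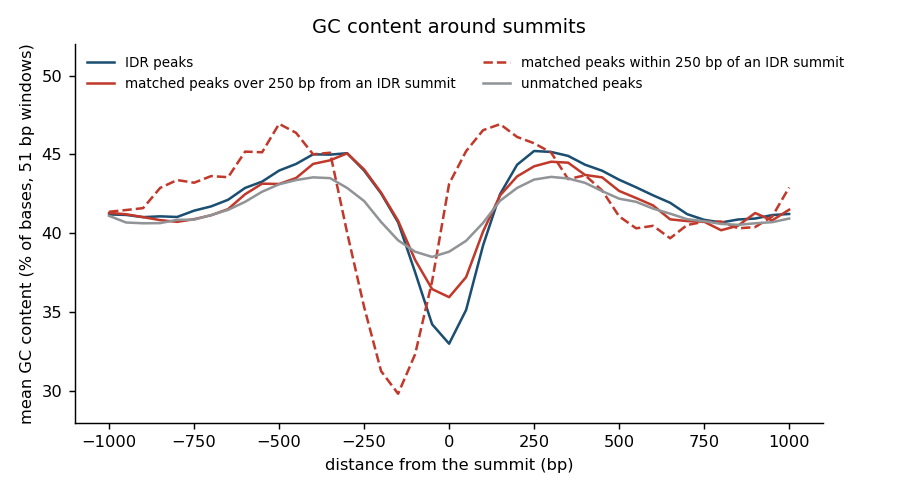
Mean GC content in 51 bp windows (y axis, percent of bases) by distance from the summit (x axis, bp). The dip reaches 33.01% in IDR peaks and 36.0% in matched peaks over 250 bp from an IDR summit, while matched peaks closer than that have their minimum of 29.8% at −150 bp.

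None of 28 motifs (0%) was more or less frequent in matched than in IDR peaks after adjustment over both comparisons (two-sided Fisher's exact test on windows of 100 bp to each side of the summit, both strands), and 8 had an unadjusted p below 0.05. The TATA box word TATAAA came nearest, with 33.3% of matched and 37.5% of IDR peaks (Fisher's exact test, adjusted p = 0.0650). It was followed by the homeobox core TAATTA with 14.96% and 18.1% and by AATATT with 25.9% and 29.6% (Fisher's exact test, adjusted p = 0.0684 for both). Against unmatched peaks 2 of 28 motifs (7.14%) were more frequent and none (0%) less so, and no others had an unadjusted p below 0.05. TATAAA was in 33.3% of matched and 28.6% of unmatched peaks (Fisher's exact test, adjusted p = 0.0382), and in 21.8% of windows tiling the 6 arms. AATATT was in 25.9% and 21.9% (Fisher's exact test, adjusted p = 0.0431), and in 16.4% of tiling windows. Without the peaks within 250 bp of an IDR summit neither passed. TATAAA was then in 33.8% and 29.7% (Fisher's exact test, adjusted p = 0.175) and AATATT in 26.8% and 22.6% (adjusted p = 0.145). Neither passed among windows of 33 to 39% GC, nor in the upper or lower part of the rank range alone. The count of 0 against IDR peaks depends on how peaks are chosen. It was 7, 8 and 7 when replicate 1, 2 or 3 was left out of the rule, which also raises the number of peaks to 2220, 2501 and 2783. With all replicates required it was 7 with 1 peak kept per 1 kb and 9 with matching by interval overlap. Against unmatched peaks 0 motifs differed without replicate 2. A match to such a word is a description and not a binding site.

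The other motifs passed against neither set, and their shares are given as values. GAGAGA, bound by the GAGA factor Trl, was in 12.2% of matched, 11.7% of IDR and 11.4% of unmatched peaks, and in 6.98% of tiling windows. The GATA factor word AGATAA was in 13.5%, 15% and 12.4%, against 10.9% of tiling windows. AAAAAA was in 47.6%, 51.2% and 46.9%, against 31.5%. The ETS word CCGGAA was in 2.90%, 2.68% and 3.39%, below the 6.11% of tiling windows. The E-box CAGCTG was in 6.62% of matched peaks and 8.39% of tiling windows. The E-box CACCTG was in 4.54% of matched peaks and 7.87% of tiling windows. The E-box CACGTG was in 1.64% of matched peaks and 2.36% of tiling windows. Motifs can overlap, since AATATT and AAAAAA share letters with other AT-rich words.

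**Figure D5:**
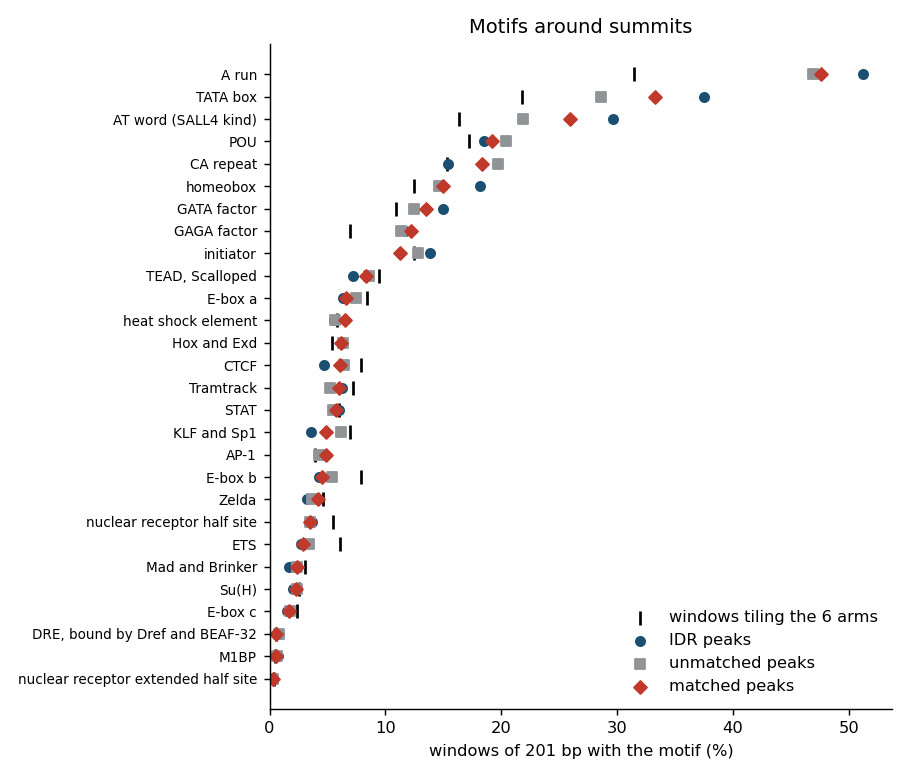
Percent of windows, 100 bp to each side of the summit, with each of the 28 motifs (x axis; y axis, motif) in matched, IDR and unmatched peaks and in windows tiling the 6 arms. E-box a, b and c are the E-boxes in the order of the text; TATA box and AT word shares of matched peaks lie between those of IDR and unmatched peaks.

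Among all 2080 words of 6 bases, counted with their reverse complement, 51 (2.45%) were more frequent and 56 (2.69%) less frequent in matched than in IDR peaks. Of the 51, 40 held 4 or more G or C bases, and of the 56, 53 held at most 1. ACCGGG had the largest ratio, with 2.83% of matched and 1.05% of IDR peaks (Fisher's exact test, adjusted p = 0.000860). GACTAC had the smallest, with 1.71% and 3.38% (Fisher's exact test, adjusted p = 0.0369). Against unmatched peaks 21 words (1.01%) were more frequent and 8 (0.385%) less so. All of the 21 held at most 2 G or C bases, and all of the 8 held 3 to 5. GTACTA led, with 6.77% and 4.28% (Fisher's exact test, adjusted p = 0.0156), and CGTCGA was lowest, with 2.60% and 4.57% (adjusted p = 0.0325). Without the peaks within 250 bp of an IDR summit the counts fell to 11 and 20 words against IDR peaks, and to 9 and 1 against unmatched peaks, while the number of words tested stayed at 2080.

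At genes, 240 matched peaks lay within 500 bp of a protein-coding start site, and a peak can count for more than 1 gene. By gene, 282 of 13945 protein-coding genes (2.02%) had a matched peak at a start site. Of these 85 also had an IDR summit within 500 bp of a start site, and 197 (1.41%) had a matched peak only. IDR peaks marked 1747 genes (12.5%). Thus 30.1% of the genes with a matched peak at a start site also had an IDR peak at one of their start sites. It need not be the same start site. In their spans 629 genes (4.51%) held a matched peak, with a median span of 26273 bp against 2166 bp for all genes, and 168 of them held no IDR summit in the span. Leaving out the peaks within 250 bp of an IDR summit left 237 genes with a matched peak at a start site. A rule without replicate 1, 2 or 3 gave 498, 500 and 514 such genes.

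In each list of signalling genes matched peaks added between 0 and 2 genes at a start site to those marked by IDR peaks. Of all protein-coding genes 12.5% had an IDR start-site peak, 2.02% a matched one and 1.41% a matched one only. Among 25 wing patterning genes 5 had an IDR start-site peak and 2 a matched peak only. These were al, the homeobox gene aristaless, and ab, the BTB zinc-finger gene abrupt. The al peak lay 71 bp from the start site with replicate ranks of 10149, 9355 and 6130, and the ab peak lay 458 bp away with ranks of 14055, 13609 and 5078. In the Dpp and activin list 3 of 21 genes had an IDR start-site peak and dally, a glypican that shapes the Dpp gradient, a matched peak only, ranked 9756, 8568 and 13675. Among 18 Notch genes 6 had an IDR start-site peak. The repressor gene E(spl)mbeta-HLH, a Notch target, had a matched peak only, ranked 9413, 7062 and 8991, 343 bp from its start site. In the EGFR list it was kek1, an inhibitor of the receptor, whose matched summit lay 4 bp from the start site and 987 bp from an IDR summit.

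The Hedgehog and JAK-STAT lists had no IDR start-site peak, in 0 of 13 and 0 of 9 genes, and 1 matched peak each. Beside 12.5% and 2.02% of all protein-coding genes, counts of 0 and 1 in lists this short say little about either pathway. In boi, which encodes a Hedgehog co-receptor, the summit lay 9 bp from the start site and ranked 10480, 11491 and 9742. In Ptp61F, which encodes a phosphatase that dampens JAK-STAT signalling, it ranked 10430, 3550 and 12644, with replicate 2 far better than the others, and lay 23872 bp from any IDR summit. In the Wnt list 4 of 23 genes had an IDR start-site peak and fz3, a Frizzled receptor gene induced by Wingless, a matched one, ranked 6442, 13378 and 6615. In the JNK list 3 of 10 genes had a matched start-site peak, of which hep, which encodes a kinase that phosphorylates JNK, had no IDR peak. The hep summit was nearer to the start site of lic, so it cannot be given to either gene.

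Among the lists, ecdysone response genes gave the highest share with a matched peak in the span, 9 of 23 (39.1%). Of all protein-coding genes 4.51% had one, and the longer spans of the listed genes are not accounted for. The other lists ran from 0% for odorant receptors to 33.3% for mesoderm and muscle regulators, with 30.8% for Hedgehog and 30.4% for Wnt genes. Differences between lists were not tested. By start site 2 of the 23 ecdysone genes (8.70%) had a matched peak only, against 1.41% of all protein-coding genes. Eip74EF, an ETS factor gene induced early by the hormone, had its peak 218 bp from the start site, with replicate ranks of 7874, 12810 and 3901. The zinc-finger gene crol, also ecdysone-induced, had one 247 bp away, ranked 12060, 10418 and 11675, so that all replicates placed it low. Eip75B, a nuclear receptor gene, held 5 matched and 13 IDR summits in its span. Blimp-1, a transcriptional repressor gene, held 2 and 2.

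For muscle and body-plan genes the counts in spans stand against 4.51% of all protein-coding genes, again with span length not accounted for. Of 24 mesoderm and muscle regulators 8 (33.3%) held a matched peak in the span. At start sites 3 had one, and Mef2, a master regulator of muscle genes, had one 100 bp from a start site, ranked 13648, 6601 and 4716. The myoblast fusion gene kirre held 8 matched and 22 IDR summits over a span of 394149 bp, the highest count of any gene. Among 17 flight muscle structure genes 2 (11.8%) held a matched peak in the span, and Zasp52, a Z-disc protein gene, held 3 against 2 IDR summits. Of 8 Hox genes 2 (25%) did, of which Antp held 1 matched and 12 IDR summits and pb held 1 matched and none of the IDR list. Of 17 eye determination genes 2 (11.8%) did, and so held 1 matched and no IDR summit. Among 13 cell death regulators Diap1, an inhibitor of apoptosis, had a matched start-site peak ranked 10098, 12340 and 10950.

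Housekeeping and receptor families are given beside the 2.02% of all protein-coding genes with a matched start-site peak. Of 92 cytoplasmic ribosomal protein genes 27 had an IDR start-site peak and 4 (4.35%) a matched one, of which RpS15 alone had no IDR peak, and its replicate ranks were 10954, 6571 and 8891. Of 73 mitochondrial ribosomal protein genes 16 had an IDR start-site peak and mRpS18B (1.37% of the list) a matched one only, ranked 11531, 10081 and 10840. Matched peaks marked 0 of 48 proteasome, 0 of 95 cuticle protein and 0 of 59 odorant receptor genes at a start site. Among 60 gustatory receptor genes, which are expressed in taste neurons, 1 (1.67%), Gr77a, had a matched peak 96 bp from its start site, ranked 10306, 5686 and 7092. No matched start-site peak was found in the Hox, eye, flight muscle, proneural, Polycomb and Trithorax, insulator, cell cycle or insulin lists, each of which had between 2 and 7 genes with an IDR start-site peak. One Hippo and Fat gene had a matched peak at a start site and also an IDR peak at a start site.

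The 10 genes with the most matched summits in their spans were long. After kirre came Ptp61F, fru, hth and sbb with 7 each. fru encodes the sex-specific Fruitless factors, hth the homeobox factor Homothorax and sbb the nuclear protein Scribbler. Per 10 kb of span Ptp61F, fru, hth and sbb held 0.527, 0.533, 0.530 and 0.885 and kirre 0.203, against 0.100 over all arms. The genes were chosen for their counts, so values above that of all arms follow in part from the choice. IDR summits per 10 kb were 0.678, 0.990, 0.909 and 3.79 in Ptp61F, fru, hth and sbb, 0.558 in kirre and 0.484 over all arms. In the spans of Ptp61F, fru, hth and sbb the replicate lists held 15 ± 1.73, 20.7 ± 1.53, 28 ± 4.36 and 23.3 ± 0.577 summits of the same rank range (SD, n = 3). That count also takes in entries matching IDR peaks. The others of the 10 were CG32264, Fas3, mub, CG32816 and Eip75B, with 5 or 6 each.

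The spalt genes themselves held none. Within 20000 bp of salr there were 0 matched peaks, 8 IDR peaks and 16 unmatched peaks, and within 20000 bp of salm there were 0, 8 and 5. Over all arms there were 0.100 matched summits per 10 kb. Few would thus fall in windows of this size, and the counts of 0 are not read as a trait of these genes.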

How the data were processed

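The deposited dm6 lists were used, 1 per replicate and 1 for the pooled replicates, with 30000 entries each, and the authors' optimal IDR list; the dm3 lists served for counts only. The signal value is a score deposited by the authors with no stated scale, and −log10 q was deposited by the authors beside it. Per the labels, chromatin was sonicated and recovered with an anti-GFP antibody. Which aligner and which caller made them is not given in the sources used here. By name the lists hold background as well as peaks, so low entries need not be binding sites.

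Entries were ranked by signal value, and a summit is the start plus the deposited offset. Summits were compared with Ensembl release 115 genes, without transposable elements, and the Release 6 genome (coordinates 1-based). Classes were assigned in the order promoter (within 500 bp), 5′ UTR, coding exon, 3′ UTR, noncoding exon, intron, intergenic. Differences were tested by two-sided Fisher's exact tests with Benjamini-Hochberg adjustment over 14 class tests, over 28 motifs or 2080 words and both comparisons, at 0.05 (Python 3.11.15, scipy 1.17.1, statsmodels 0.14.6). Word counting was tested on simulated data. Wilson and Newcombe 95% intervals cover counting error only, since depth is unknown.

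The matched peaks, 27 gene lists, 28 motifs and the naming rule were all chosen with earlier results of these data known. The rule named the 10 matched peaks of highest signal value, the 10 of best worst rank and the ends of the rank range. It took up to 4 genes per list with a matched peak only at a start site, up to 2 genes per list and 10 in all with the most summits, salr and salm, motifs past the threshold and extreme words. The matched peaks over 1 kb from an IDR summit and those beside one were singled out after their values were seen. Of the list symbols 354 matched directly, 14 by synonym and 426 by pattern, and 11 are not analysed here.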

Additional observations from a re-analysis of the deposited data

How the results depend on the processing

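The count of matched peaks depends on the rule. It was 604 with summits within 50 bp, 258 with the 10000 best of each replicate and 3029 with overlap of at least 50% of each interval in place of summit distance. Requiring 2 replicates in place of 3 gave 2220 to 2783. The dm3 lists gave 1497.

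The promoter share was lower than in IDR peaks under all 14 alternatives, from −11.6 to −2.88 points (−10.1 to −7.90 with a replicate left out). It did not pass after rank 10000 (−8.80, Fisher's exact test, adjusted p = 0.116) or against IDR peaks ranked after 5000 (−2.88), the latter added after seeing the data. Against unmatched peaks the promoter difference had no stable sign. It was −1.17 at 50 bp, −2.08 with the 10000 best, −4.25 down to rank 10000, −0.348 and −0.610 with promoters of 250 and 1000 bp, −1.22 to 1.90 with a replicate left out, and 2.53 (Fisher's exact test, adjusted p = 0.0285) with interval overlap. The coding exon difference from IDR peaks ranged over −0.123 to 0.0118 with a replicate left out and was 0.00870 with interval overlap. From unmatched peaks it was −0.432 to −0.230, passing without replicate 2 (Fisher's exact test, adjusted p = 0.000513).

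Within 1 kb of an IDR summit the difference from unmatched peaks was 10.3 points with the 10000 best, 26 with interval overlap, −7.56 down to rank 10000, 18.1 after rank 10000, and 0.275 to 4.11 with a replicate left out.

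Motifs that differed from IDR peaks numbered 9 with interval overlap, 7 with 1 peak per 1 kb, 7 to 8 with a replicate left out, 2 in windows of 50 bp to each side and 1 against IDR peaks matched in all replicates. From unmatched peaks 0 differed at 50 bp, with the 10000 best, interval overlap, either part of the rank range, windows of 200 bp to each side, peaks near IDR summits left out (1 kb or 250 bp) or 33 to 39% GC. It was 1 in windows of 50 bp to each side and 0 to 2 with a replicate left out. The 250 bp, GC and IDR-subset alternatives were added after seeing the data.

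Genes with a start-site peak numbered 115 at 50 bp, 48 with the 10000 best, 632 with interval overlap, 498 to 514 with a replicate left out, 42 after rank 10000 and 159 with promoters of 250 bp. The causes of these shifts were not tested. No paired analysis was possible because all replicates belong to 1 group.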
